A study of Mus musculus with 17 samples.

Results

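The 10 genes described here carry the output and the negative limb of the circadian clock: the period genes Per1, Per2 and Per3, the REV-ERB receptor genes Nr1d1 and Nr1d2, the PAR bZIP factor genes Dbp, Tef and Hlf, the repressor gene Ciart and the deubiquitinase gene Usp2. They are 10 of the 53278 gene symbols in an expression table of mouse small intestinal epithelium. The genes were chosen by name, with results from these same libraries in view. In the values as deposited, Nr1d2 and Usp2 were among the 4 genes called between the 2 kinds of dam at day 24. Once the libraries were rescaled, as described below, no gene was called in that comparison. The difference of the 10 genes at day 24 is therefore given as a description, with no test. The other comparisons that use the day 24 libraries are not independent of that choice.

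The study asked how antibody from the mother's milk bears on the developing intestine. All pups had the genotype Igha -/+ (1 working copy of the IgA heavy chain gene) on the C57BL/6 strain, and they were nursed either by a C57BL/6 dam, here the B6 dam or control, or by an IgA -/- dam, here the IgA-null dam, whose pups received no maternal IgA. Epithelial cells were sorted from digested small intestine as EpCAM+ CD45- Ter119- on day of life 14, 24 or 42, under specific pathogen free housing. Each of the 6 groups held 3 libraries, except the B6 dam at day 24 with 2, which makes 17. Litters and the number of pups per library are not given in the labels, and the spread behind each p-value is that between these libraries, which may be technical. The hour of collection is not given in the sources used here. The sample names carry strings that read as dates, and these are shared by both dams at day 42 only, so the date and the dam cannot be told apart at days 14 and 24. They also differ between day 14 and day 24 within each dam, so date and age cannot be told apart there. Between day 24 and day 42 they differ with the B6 dam, where date and age again cannot be told apart, and are shared with the IgA-null dam. Each name also begins with F (IgA-null dam) or M (B6 dam). What the letter stands for is not given, and it cannot be told apart from the dam.

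In the clock, the activators BMAL1 (gene Arntl) and CLOCK or NPAS2 bind E-box elements and switch on the Per, Cry, Nr1d1, Nr1d2, Dbp and Ciart genes. PER and CRY proteins then block the activators, while the REV-ERB receptors, encoded by Nr1d1 and Nr1d2, repress Arntl and other genes that carry their response element. The PAR factors DBP, TEF and HLF act on D-box elements, where NFIL3 opposes them, and Usp2 is a rhythmic gene whose enzyme removes ubiquitin from target proteins. Clock genes are rhythmic in the gut lining, where feeding time is a known cue.

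The promoters show which of these elements the genes carry close to their start. RefSeq promoter sequences of GRCm38.p6 were found for 9 of the 10 genes, with none for Per2, and 11 start sites were searched on both strands over the 250 bases before the start. The E-box CACGTG was present before Ciart at 3 places, before Per1 once, and before each of the 2 Tef starts, against 6.02% of all 32851 promoters in the table. The variant CACGTT stood before Nr1d1 (3.85% of all promoters), the D-box TTANGTAA stood 2 times before Per3 (2.06%), and AGGTCA, the core of the element bound by REV-ERB receptors, stood before Nr1d2 and Per1 (14.0%). A match is a string of letters in this window and does not show binding. CACGTG reads the same on both strands, so the searches overlap there. Dbp, Hlf and Usp2 had no match to any of these elements in the window, and Nr1d2 had neither an E-box nor a D-box there. The stretches that hold the matches are printed 5′ to 3′ on the gene's strand, with each match in capitals.
Ciart, chr3:95882242-95882369, minus strand, with matches 116, 58 and 44 bases before the start: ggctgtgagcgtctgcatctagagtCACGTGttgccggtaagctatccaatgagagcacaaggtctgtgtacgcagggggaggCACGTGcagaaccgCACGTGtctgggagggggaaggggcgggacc
Per1, chr11:69098758-69098842, plus strand, with CACGTG 166 and the reverse of AGGTCA 137 bases before the start: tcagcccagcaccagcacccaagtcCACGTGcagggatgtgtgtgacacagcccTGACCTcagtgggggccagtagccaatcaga
Tef, first start, chr15:81802521-81802576, plus strand, with the match 127 bases before: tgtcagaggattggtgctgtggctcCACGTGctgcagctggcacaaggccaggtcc
Tef, the other start, chr15:81811251-81811306, plus strand, with the match 138 bases before: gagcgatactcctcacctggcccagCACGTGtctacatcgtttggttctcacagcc
Nr1d1, chr11:98775378-98775430, minus strand, with the reverse of CACGTT 28 bases before: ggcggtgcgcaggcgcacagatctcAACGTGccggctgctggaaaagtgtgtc
Per3, chr4:151044791-151044895, minus strand, with matches 205 and 158 bases before: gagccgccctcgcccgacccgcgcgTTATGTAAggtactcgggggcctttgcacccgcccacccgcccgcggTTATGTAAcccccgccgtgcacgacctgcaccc
Nr1d2, chr14:18239153-18239208, minus strand, with the match 77 bases before: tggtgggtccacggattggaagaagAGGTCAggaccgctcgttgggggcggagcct

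Expression is in TPM, the share of transcripts in a library, which is per length and so allows levels of different genes to be set side by side. Between 8926992 and 18897602 reads per library were recovered from the values. A single non-coding RNA, Gm23935, took 40.2% to 61.9% of each library and the mitochondrial genes took 13.7% to 34.6%, so the TPM of all other genes moved together. From day 14 to day 24 the median gene moved by -0.29 on the log2 scale with the B6 dam and by -1.02 with the IgA-null dam, and from day 24 to day 42 by 0.12 and 0.53. Between dams it moved by 0.33 at day 14, -0.38 at day 24 and 0.03 at day 42. The called differences of the clock output genes are therefore given from the deposited TPM and again as scaled TPM, in which each library is divided by its median-of-ratios factor (0.477 to 1.83), which brings these medians close to 0.

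All 6 epithelial marker genes were present, with a summed level of 691 to 2610 TPM in every library. Of the 6 leukocyte markers 1, Csf1r, reached 1 TPM, and the list's sum was 0.264 to 7.85 TPM; fibroblast, endothelial and neural lists stayed below 1 TPM. The 2 erythroid markers summed to 27.7 TPM in replicate 2 of the IgA-null dam at day 24, although the sort was Ter119-, and to at most 1.49 TPM in every other library; their part in the results was not tested. By the epithelial list the cells were epithelial. The 2 B6 dam libraries of day 24 differed from each other in enterocyte RNA. The sum of Sis, Treh, Arg2, Slc2a2 and Apoa4, a list drawn up as adult enterocyte markers, was 159 and 1639 TPM in replicates 1 and 2, and that of 6 neonatal markers (Lct, Fcgrt, Ass1, Cubn, Lrp2, Nox4) was 14.9 and 138 TPM. At day 42 replicate 1 of the B6 dam stood at 664 TPM on the first list against 75.5 and 134 TPM, and at 98.4 TPM on the other, where replicates 2 and 3 were at or below 20.6 TPM. The first list did not follow its name: it was 1007 to 4445 TPM at day 14, with Apoa4 alone reaching 4419 TPM, and 73.9 to 1639 TPM later. For the clock output genes, the calls that these 2 libraries decide are given without them. Calls of all other genes are given with every library included only.

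**Figure D1:**
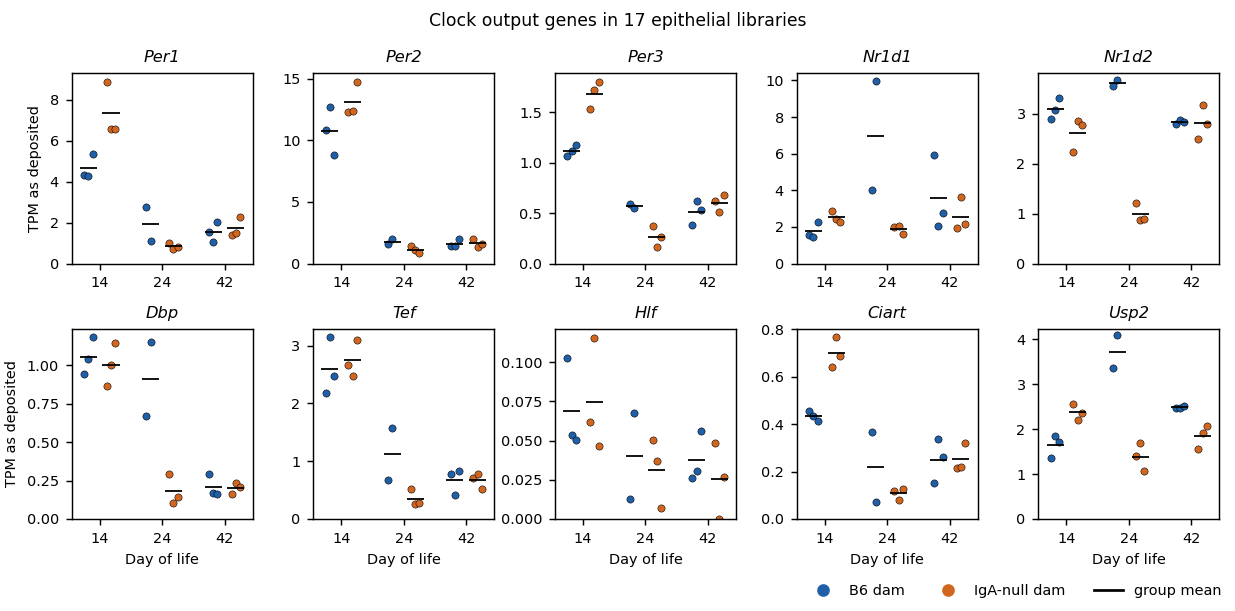
TPM as deposited of the 10 clock output genes by day of life (x axis), with 1 point per library, blue for the B6 dam and orange for the IgA-null dam, and a bar at each group mean. Per1, Per2, Per3 and Tef are highest at day 14 with both dams, while Nr1d1, Nr1d2 and Usp2 have their highest group mean at day 24 with the B6 dam.

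The period genes, whose proteins form the repressive arm with the cryptochromes, were at their highest on day 14. Per2 stood at 10.8, 12.7 and 8.83 TPM in the B6 dam libraries of day 14 and at 12.3, 12.4 and 14.7 TPM with the IgA-null dam. At day 24 it was 1.56 and 1.96 TPM with the B6 dam and 1.42, 1.14 and 0.853 TPM with the IgA-null dam. At day 42 it was 1.39, 1.43 and 2.00 TPM with the B6 dam and 1.98, 1.33 and 1.61 TPM with the IgA-null dam. Every day 14 library lay above every later library, with no overlap. In scaled TPM this held too, at 7.49 to 10.5 on day 14 and at most 2.93 later. The share of all genes with such a gap was not computed. Per1 was 4.32, 4.30 and 5.35 TPM (B6 dam) and 8.89, 6.58 and 6.59 TPM (IgA-null dam) at day 14. It was 2.75 and 1.08 TPM against 1.02, 0.723 and 0.801 TPM at day 24, and 1.07 to 2.01 TPM against 1.40 to 2.29 TPM at day 42. Per1 too was higher in each day 14 library than in any later one, on either scale, and its 2 B6 dam libraries of day 24 lay apart. Per3 was 1.06, 1.11 and 1.18 TPM (B6 dam) and 1.53, 1.72 and 1.81 TPM (IgA-null dam) at day 14, then 0.590 and 0.551 TPM against 0.370, 0.161 and 0.262 TPM at day 24, and 0.380 to 0.677 TPM over both dams at day 42.

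The REV-ERB genes, which encode heme-binding nuclear receptors that repress transcription, did not share that course. Nr1d1 was 1.58, 1.48 and 2.26 TPM with the B6 dam at day 14, 4.01 and 9.97 TPM at day 24, and 5.91, 2.04 and 2.78 TPM at day 42. Its values under the IgA-null dam were 2.86, 2.45 and 2.26 TPM, then 1.98, 2.07 and 1.61 TPM, then 1.92, 3.62 and 2.16 TPM. The highest values, 9.97 and 5.91 TPM, were in the B6 dam libraries with the most RNA of both enterocyte lists in their groups, while at day 14, where both lists stood above nearly all later libraries, Nr1d1 was 1.48 to 2.86 TPM. The part of those cells in the values was not tested. Nr1d2 was 2.88, 3.08 and 3.30 TPM with the B6 dam at day 14, 3.55 and 3.67 TPM at day 24 and 2.79, 2.86 and 2.82 TPM at day 42. For pups of the IgA-null dam it was 2.22, 2.86 and 2.77 TPM at day 14, 1.21, 0.878 and 0.896 TPM at day 24 and 2.49, 3.17 and 2.78 TPM at day 42. In deposited TPM the low point of Nr1d2 was the IgA-null dam at day 24, whose 3 libraries lay below all 14 others. The share of all genes that were likewise lowest there was not computed. In scaled TPM those 3 libraries, at 1.63 to 1.88, overlapped with the IgA-null dam at day 14, at 1.36 to 2.04. The lowest scaled library, at 1.36, was thus one of day 14. Usp2 was 1.37, 1.85 and 1.72 TPM with the B6 dam at day 14, 3.37 and 4.09 TPM at day 24 and 2.47, 2.47 and 2.53 TPM at day 42, and 2.56, 2.20 and 2.37 TPM, then 1.40, 1.69 and 1.08 TPM, then 1.56, 1.92 and 2.06 TPM with the IgA-null dam.

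Of the PAR factor genes, Tef had the highest mean in every group. Tef was 2.18, 3.15 and 2.48 TPM with the B6 dam and 2.66, 2.47 and 3.11 TPM with the IgA-null dam at day 14. At day 24 it was 0.677 and 1.57 TPM against 0.511, 0.251 and 0.271 TPM, and at day 42 it was 0.412 to 0.822 TPM over both dams. Dbp was 0.941, 1.04 and 1.18 TPM (B6 dam) and 0.866, 1.00 and 1.15 TPM (IgA-null dam) at day 14, but at day 24 it was 0.671 and 1.15 TPM with the B6 dam and 0.291, 0.103 and 0.146 TPM with the IgA-null dam. By day 42 Dbp was at 0.161 to 0.290 TPM with both dams, so the B6 dam libraries of day 24 were the only later ones in the day 14 range or near it. Hlf stayed at 0 to 0.116 TPM on 0 to 11 reads, at which depth no difference between groups was detectable. Ciart, which encodes a repressor of the activator pair, was 0.414 to 0.456 TPM (B6 dam) and 0.642 to 0.769 TPM (IgA-null dam) at day 14 and 0.0726 to 0.367 TPM in all later libraries, on 3 to 19 reads. Hlf and Ciart did not pass the filter of at least 1 TPM in at least 2 libraries, and 8 of the 10 genes entered the tests.

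The order of the levels changed with age. With the B6 dam at day 14 Per2 came first (10.8 ± 1.94 TPM, SD, n = 3), then Per1 (4.66 ± 0.599), Nr1d2 (3.09 ± 0.210), Tef (2.60 ± 0.495), Nr1d1 (1.77 ± 0.425), Usp2 (1.65 ± 0.249), Per3 (1.12 ± 0.0561) and Dbp (1.06 ± 0.123). The ranges of the neighbours Nr1d2 and Tef, Tef and Nr1d1, Nr1d1 and Usp2, and Per3 and Dbp overlapped. At day 24 with the B6 dam Nr1d1 came first at a mean of 6.99 TPM, followed by Usp2 (3.73) and Nr1d2 (3.61), with Per2 behind Per1 at 1.76 TPM. The ranges of Nr1d1 and Usp2, Usp2 and Nr1d2, and Per1 and Per2 overlapped in that group. Per2 lay below Per1 in replicate 1 (1.56 against 2.75 TPM) and above it in replicate 2 (1.96 against 1.08 TPM). In the IgA-null dam libraries of that day Nr1d1 also came first (1.88 ± 0.244 TPM, SD, n = 3), followed by Usp2 (1.39 ± 0.307) and Per2 (1.14 ± 0.283), whose ranges overlapped with their neighbours.

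**Figure D2:**
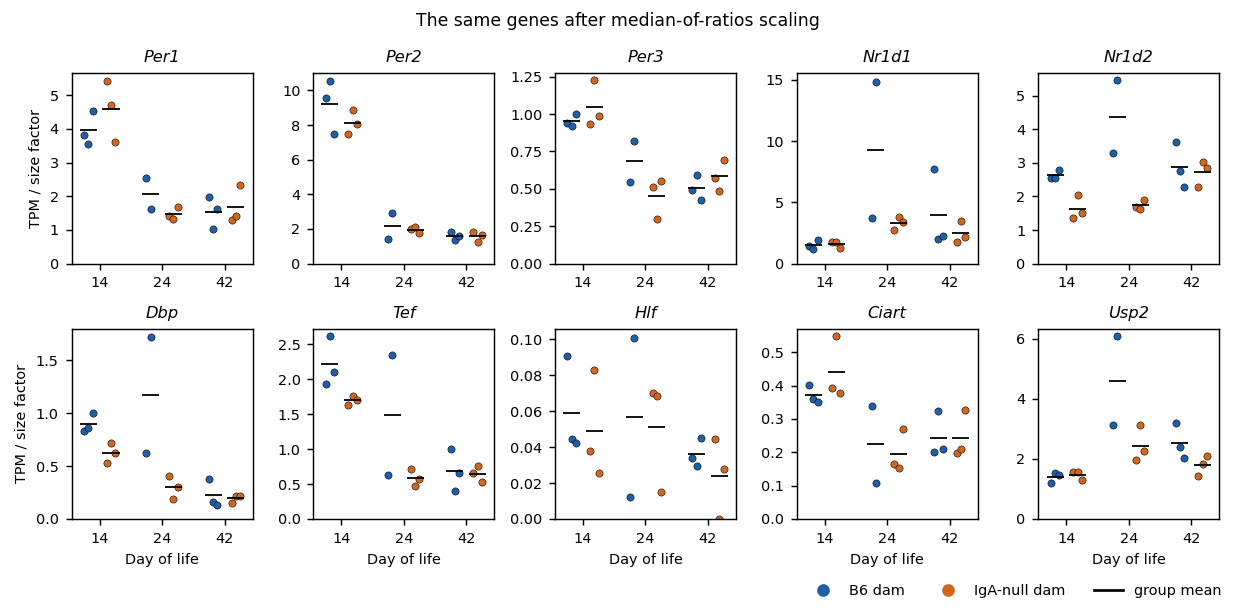
Scaled TPM of the same 10 genes (y axis), by day of life (x axis), 1 point per library and a bar at each group mean. Per1, Per2 and Per3 remain highest at day 14, and Nr1d2 of the IgA-null dam lies at 1.63 to 1.88 at day 24, below the B6 dam at 3.29 and 5.47.

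From day 14 to day 24 with the B6 dam, Nr1d1 and Usp2 rose and Per1, Per2 and Tef fell. Per2 went from 10.8 ± 1.94 TPM (SD, n = 3) to a mean of 1.76 TPM (n = 2), 6.13-fold lower, or 4.21-fold lower in scaled TPM. Its log2 difference, on the log2(TPM + 1) scale used throughout, was -2.08 (SE 0.191, limma adjusted p = 4.56e-06; scaled -1.71, adjusted p = 4.34e-05), and it was called in all 19 alternatives run. Nr1d1 rose 3.94-fold (log2 1.43, SE 0.331, limma adjusted p = 0.013; scaled 1.79, 0.021) and Usp2 rose 2.27-fold (0.84, SE 0.159, 0.0034; scaled 1.17, 0.0025). Per1 fell 2.43-fold (log2 -1.01, SE 0.240, limma adjusted p = 0.015; scaled -0.70, 0.036). Tef fell by 0.79 on the log2 scale (SE 0.203, limma adjusted p = 0.024), but the scaled value of -0.46 did not pass (0.22). Nr1d2 (0.17, limma adjusted p = 0.45; scaled 0.54, 0.060), Per3 (-0.43, 0.096; scaled -0.22, 0.28) and Dbp (-0.11, 0.68; scaled 0.15, 0.65) did not pass. The sign for Dbp depended on the scale. Of the 8 genes tested, 2 were called higher, against 1.62% of all 15066 genes, and 3 lower, against 6.99%. In scaled TPM 2 were called higher and 2 lower, against 7.93% and 5.91% of all genes. The day 24 libraries also entered the choice of the genes, so these calls and shares are not independent of it.

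Leaving out 1 library decided several of these calls. Without B6 dam day 24 replicate 2, the library higher in both enterocyte lists, Nr1d1 stood at 0.86 (limma adjusted p = 0.28), Per1 at -0.59 (0.30) and Usp2 at 0.73 (0.052), and 2 of the genes were called. Without B6 dam day 14 replicate 2, Nr1d1 stood at 1.35 (limma adjusted p = 0.051) and Tef at -0.68 (0.10). Without B6 dam day 24 replicate 1, Tef stood at -0.48 (limma adjusted p = 0.11). The scaled calls of Per1 were lost without any 1 of the 3 day 14 libraries, and that of Nr1d1 without replicate 1 or 2 of day 14; both were also lost without B6 dam day 24 replicate 2. The summed level of the neonatal enterocyte markers went from 249 to 796 TPM at day 14 to 14.9 and 138 TPM at day 24; its part in the clock genes' change was not tested. In sorted bulk samples, fewer cells of a type and less RNA per cell cannot be told apart.

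From day 14 to day 24 with the IgA-null dam, all 3 period genes and Tef fell on both scales. Per2 went from 13.1 ± 1.40 TPM to 1.14 ± 0.283 TPM (SD, n = 3 each), 11.6-fold lower, or 4.16-fold lower in scaled TPM (log2 -2.73, SE 0.171, limma adjusted p = 5.86e-08; scaled -1.63, 4.16e-05). Per1 fell 8.66-fold, or 3.09-fold scaled (log2 -2.17, SE 0.215, limma adjusted p = 4.65e-06; scaled -1.16, 0.0013). Per3 fell 6.38-fold, or 2.31-fold scaled (log2 -1.09, SE 0.140, limma adjusted p = 2.41e-05; scaled -0.50, 0.00995). The 3 period genes were called in every alternative run, 21 for Per1, 21 for Per2 and 20 for Per3. Tef fell by 1.48 on the log2 scale (SE 0.181, limma adjusted p = 1.84e-05; scaled -0.77, 0.023), and its scaled call was lost without 5 of the 6 libraries in turn.

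The other genes depended on the scale with the IgA-null dam. Dbp fell by 0.77 (limma adjusted p = 0.000342; scaled -0.32, 0.18). Nr1d2 fell by 0.86 in deposited TPM (limma adjusted p = 5.82e-05), less than the median gene, and its scaled difference was 0.058 (0.83). Usp2 fell by 0.51 (limma adjusted p = 0.0038), and its scaled difference had the opposite sign, 0.46 (0.10). Nr1d1 passed on neither scale (-0.29, limma adjusted p = 0.37; scaled 0.74, 0.23). In all, 7 of the 8 genes were called lower in deposited TPM, against 82.9% of all genes, and 4 in scaled TPM, against 8.28%. These calls and shares too are not independent of the choice of the genes. The neonatal enterocyte sum went from 182 to 401 TPM to 34.2 to 61.5 TPM between these ages, and its part was not tested. The difference between the dams' courses was not tested, since it contains the day 24 contrast on which the genes were chosen.

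**Figure D3:**
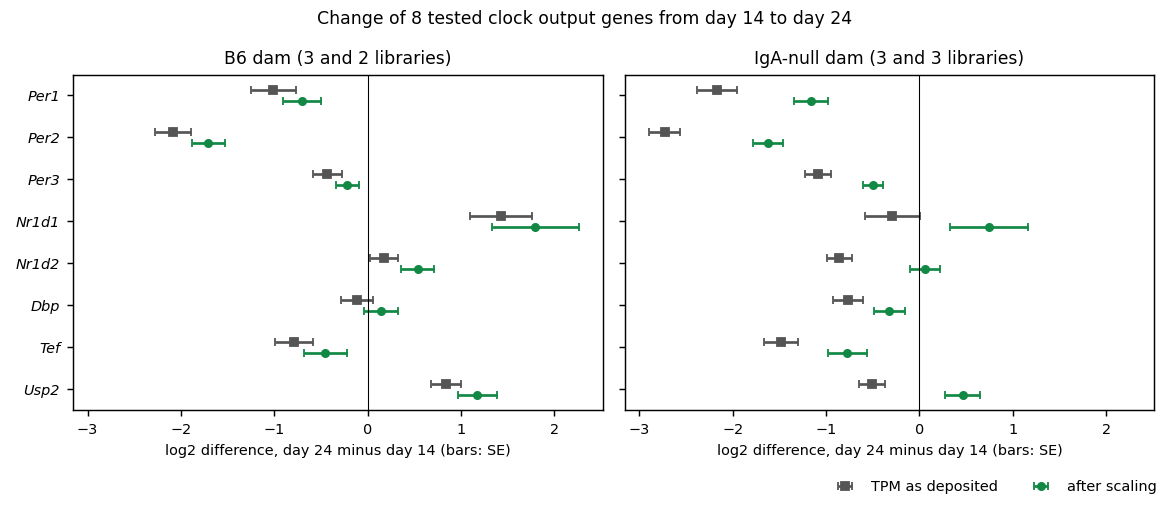
Log2 difference from day 14 to day 24 (x axis; bars are standard errors) of the 8 tested genes with each dam, grey squares from deposited TPM and green circles from scaled TPM. Per2 lies at -2.08 and -1.71 with the B6 dam and at -2.73 and -1.63 with the IgA-null dam, while Nr1d1 and Usp2 lie above 0 with the B6 dam on both scales.

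At day 24 every one of the 8 genes had a lower mean with the IgA-null dam, which is a description of the contrast used in choosing them. Dbp had the largest ratio, 5.07-fold lower (3.89-fold in scaled TPM), from 0.671 and 1.15 TPM to 0.180 ± 0.0984 TPM (SD, n = 3). Nr1d1 was 3.71-fold lower (2.80-fold scaled), Nr1d2 3.62-fold (2.53-fold), Tef 3.26-fold (2.55-fold) and Usp2 2.68-fold (1.88-fold). The period genes differed less: Per1 was 2.26-fold lower (1.40-fold scaled), Per3 2.16-fold (1.51-fold) and Per2 1.55-fold (1.12-fold). In log2(TPM + 1) the differences ran from -0.32 for Per3 to -1.37 for Nr1d1, with a median of -0.66, where the median of all genes was -0.38. In scaled TPM they ran from -0.068 for Per2 to -1.01 for Nr1d1, with a median of -0.61 against -0.03. The groups did not overlap, with the IgA-null dam lower, for 8 of the 10 genes in deposited TPM, where 33.5% of all tested genes did the same. In scaled TPM this held for 2 genes, Nr1d2 and Dbp, against 9.7% of all tested genes. Across all genes limma called 0.0265% lower in this contrast in deposited TPM. It called none of 15066 genes in scaled TPM, and limma-voom on recovered reads called none of 17165. Nothing is read from these shares because the contrast was used in choosing the genes. Without B6 dam day 24 replicate 2 the scaled median was -0.20, with Nr1d1 at -0.14, Nr1d2 at -0.65 and Per2 at 0.27, and without replicate 1 it was -1.06. Other markers differed between the same libraries: scaled enteroendocrine sums were 591 and 735 (B6 dam) against 266 to 363 (IgA-null dam), and scaled Paneth sums 213 and 321 against 909 to 2416. The mitochondrial share was 22.2% and 22.7% against 31.5% to 33.3%, and the part of these in the clock genes' values was not tested.

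Ratios of 2 genes within a library do not depend on its scaling. Per2 over Nr1d2 at day 14 was 2.67 to 4.12 (B6 dam) and 4.34 to 5.52 (IgA-null dam). At day 24 it was 0.439 and 0.535 (B6 dam) against 0.951 to 1.30 (IgA-null dam), and at day 42 it was 0.496 to 0.707 and 0.419 to 0.794. The dams did not overlap at days 14 and 24 and overlapped at day 42, and every library of day 14 lay above every later one. Nr1d2 over Arntl, a repressor over the activator gene it represses, was 1.26 to 1.61 and 0.470 to 0.968 at day 14, 0.997 and 1.69 against 0.272 to 0.404 at day 24, and 0.586 to 0.855 against 0.582 to 0.727 at day 42. Nr1d1 over Arntl was 1.13 and 4.60 with the B6 dam at day 24 and 0.443 to 0.725 with the IgA-null dam. The dams overlapped in that ratio at day 14 (0.694 to 0.982 against 0.485 to 0.829) and at day 42 (0.493 to 1.81 against 0.448 to 0.831). A ratio shows unequal change, not which of its genes moved. The gaps between dams at day 24 are a description only, since that contrast was used in choosing the genes. The share of other gene pairs with such gaps was not computed.

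**Figure D4:**
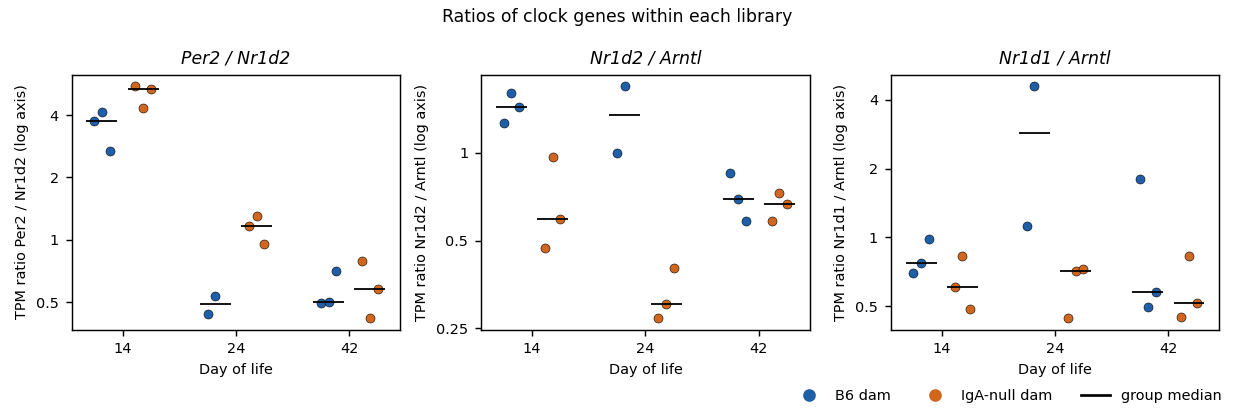
TPM ratios within each library (y axes, log scale) by day of life (x axis), 1 point per library with a bar at each group median. Per2 over Nr1d2 is at least 2.67 in all day 14 libraries and at or below 1.30 in all later ones, and Nr1d2 over Arntl is lowest with the IgA-null dam at day 24, at 0.272 to 0.404.

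At day 14 the dams did not differ past the threshold in any of the 8 genes, in deposited or scaled TPM, where limma called 8.68% and 2.93% of all genes. At an unadjusted p under 0.05 there were 3 of the 8 in deposited TPM and 1 in scaled TPM, where 32% and 19.3% of all genes were, and limma-voom on recovered reads called none. Per1 was 7.36 ± 1.33 TPM with the IgA-null dam against 4.66 ± 0.599 TPM (SD, n = 3 each; log2 0.56, limma adjusted p = 0.099; scaled 0.16, 0.68). Per3 (0.34, limma adjusted p = 0.11; scaled 0.068, 0.79) and Usp2 (0.36, 0.11; scaled 0.047, 0.92) were also higher in all 3 libraries of the IgA-null dam in deposited TPM, by about the shift of the median gene. In all, 5 of the 10 genes were higher without overlap in deposited TPM, where 45.1% of all tested genes were. Nr1d2 was the reverse, at 2.62 ± 0.342 TPM with the IgA-null dam against 3.09 ± 0.210 TPM (SD, n = 3 each; log2 -0.18, limma adjusted p = 0.34; scaled -0.47, 0.12), and its groups did not overlap on either scale. It was the 1 gene of the 10 that was lower without overlap in deposited TPM, where 1.1% of all tested genes were, and in scaled TPM Dbp and Tef were too, 3 of 10 against 15.1%.

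At day 42 the dams again differed in none of the 8 genes, and limma called 0% of all genes in deposited TPM and 0% in scaled TPM. No clock output gene had an unadjusted p under 0.05 there, and limma-voom called none. Nr1d2 was 2.83 ± 0.0351 TPM with the B6 dam and 2.81 ± 0.339 TPM with the IgA-null dam, and Per2 was 1.60 ± 0.342 and 1.64 ± 0.325 TPM (SD, n = 3 each). Usp2 was the one gene whose groups did not overlap in deposited TPM, at 2.49 ± 0.0336 against 1.85 ± 0.259 TPM (SD, n = 3 each; log2 -0.30, limma adjusted p = 1.00), and they overlapped in scaled TPM. Of all tested genes 1.89% were lower without overlap in deposited TPM. Without B6 dam day 42 replicate 1 the difference of Nr1d1 turned from -0.30 to 0.043 (limma adjusted p = 1.00), and still none of the 8 genes passed.

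From day 24 to day 42 with the B6 dam, none of the 8 genes passed the threshold on either scale, where limma called 0.0199% of all genes in deposited TPM and 0.0265% in scaled TPM. At an unadjusted p under 0.05 there were 3 of the 8 genes on each scale, where 3.75% and 7.03% of all genes were, and limma-voom called none. Dbp went from 0.671 and 1.15 TPM to 0.207 ± 0.0725 TPM (SD, n = 3), with groups that did not overlap (log2 -0.65, limma adjusted p = 0.75; scaled -0.78, 0.28). Of the 10 genes 3 were lower without overlap in deposited TPM and Dbp alone in scaled TPM, where 2.04% and 9.37% of all tested genes were. Without B6 dam day 24 replicate 1, scaled TPM gave 5 calls, so this count rested on 1 library. With the IgA-null dam Nr1d2 rose 2.82-fold, from 0.996 ± 0.189 to 2.81 ± 0.339 TPM (SD, n = 3 each; log2 0.93, SE 0.133, limma adjusted p = 0.0023). Per1 rose 2.03-fold (log2 0.55, SE 0.215, limma adjusted p = 0.044), a call that was lost without any 1 of 5 of the 6 libraries. These 2 of 8 calls stand against 48.5% of all genes called higher. In scaled TPM none passed, with Nr1d2 at 0.44 (limma adjusted p = 0.12) and Per1 at 0.093 (0.79), where 2.58% of all genes were called. There 1 of the 8 genes had an unadjusted p under 0.05, as did 23% of all genes. The comparisons with either dam use the day 24 libraries, so their counts and shares are not independent of the choice of the genes.

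Of 17 other genes of the clock loop, 14 were tested. Those named are Arntl, Npas2, Clock, Cry1 and Nfil3, and up to 4 with the smallest p. From day 14 to day 24 with the B6 dam, 5 of the 14 fell and none rose in deposited TPM, where 6.99% and 1.62% of all genes did. Among those that fell were Bhlhe40 (DEC1, a repressor; log2 -1.61, limma adjusted p = 0.00071), Cry1 (-1.08, 0.0041) and Fbxl21 (-0.92, 0.0092). In scaled TPM 4 fell and Arntl rose (0.58, limma adjusted p = 0.0054; deposited 0.27, 0.47), where 5.91% of all genes fell and 7.93% rose. With the IgA-null dam 10 of the 14 fell in deposited TPM, where 82.9% of all genes did, among them Bhlhe40 (-1.99), Cry1 (-1.45) and Gsk3b (-1.20). In scaled TPM 1 fell there, where 8.28% of all genes did. Arntl (0.87, limma adjusted p = 0.00021) and Nfil3, the factor that opposes the PAR proteins at D-box elements (0.73, 0.021), rose, as did 1258 of all 15066 genes. In deposited TPM those 2 differences were -0.30 and -0.55 and did not pass.

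Arntl moved the other way from Per2 in scaled TPM from day 14 to day 24. It was 1.59 to 2.01 and 2.11 to 2.89 at day 14, 3.23 and 3.30 (B6 dam) against 4.65 to 6.23 (IgA-null dam) at day 24, and 3.88 to 4.26 over both dams at day 42. At day 24 Arntl was higher with the IgA-null dam by 0.58 and did not pass (limma adjusted p = 0.15; deposited 0.11, 0.76). In deposited TPM the groups overlapped, at 2.17 and 3.56 (B6 dam) against 2.22 to 4.47 (IgA-null dam). Nfil3 at day 24 was 2.51 and 4.55 (B6 dam) against 7.67 to 10.1 (IgA-null dam; 1.10, limma adjusted p = 0.15; deposited 0.55, 0.23). Npas2 (0.78, limma adjusted p = 0.53), Cry1 (0.37, 0.56) and Clock (0.022, 0.98) did not pass between the dams at day 24 in scaled TPM. From day 24 to day 42 with the IgA-null dam, Nfil3 (-1.12, limma adjusted p = 0.014) and Cry1 (-0.86, 0.031) fell in scaled TPM, as did 171 of all 15066 genes. In deposited TPM those differences were -0.38 and -0.27 and did not pass, while 5 of the 14 genes rose, where 48.5% of all genes did, among them Gsk3b (0.75, limma adjusted p = 0.0040) and Clock (0.75, 0.0057).

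**Figure D5:**
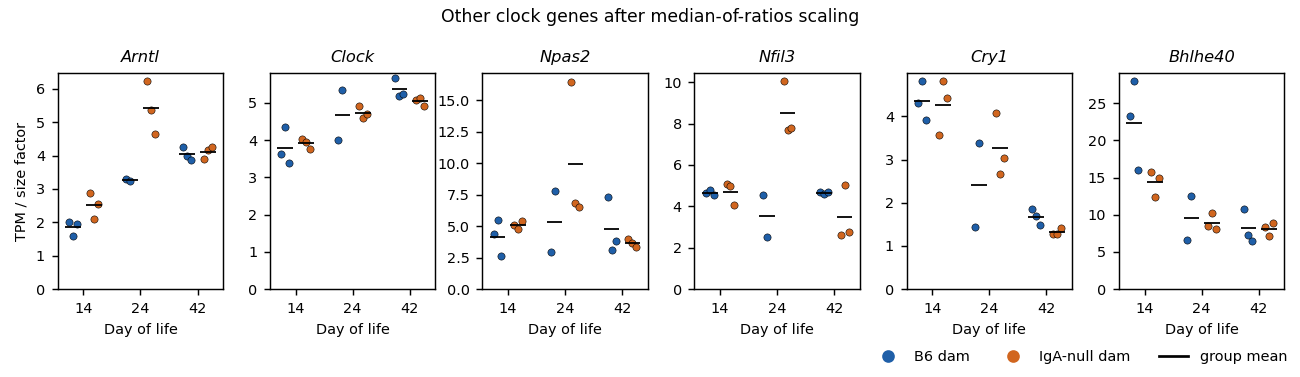
Scaled TPM of 6 other clock genes (y axis) by day of life (x axis), 1 point per library and a bar at each group mean. Arntl and Nfil3 are highest with the IgA-null dam at day 24, at 4.65 to 6.23 and 7.67 to 10.1, and the group means of Bhlhe40 are lower at days 24 and 42 than at day 14.

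Within groups the levels of the 8 tested genes mostly correlated above 0, least so for Per1. Over the 17 libraries, each gene's scaled log2 level centred on its group, the 28 pairs had Pearson r from -0.325 to 0.888, with a median of 0.576 and 23 pairs above 0. The 5 pairs below 0 all held Per1, and its other 2 pairs were at 0.082 and 0.010. These points share library and scaling, and the widest deviations were the 2 B6 dam libraries of day 24. The mean deviation of the 8 genes was -0.34 in replicate 1 and 0.34 in replicate 2 of that group. It was 0.29 in replicate 1 of the B6 dam at day 42, and all other libraries lay between -0.16 and 0.095. In the order given, the list with Sis and Apoa4 summed to 159, 1639 and 664 TPM in the libraries named, and its part was not tested. Correlations of other gene pairs, and of these pairs without the 2 B6 dam libraries of day 24, were not computed. Among 5281 genes with a mean of at least 5 TPM, those most like this mean were Il17rc (r 0.953, Spearman's rho 0.892), Tep1 (0.951, 0.745), Slc4a4 (0.947, 0.828), Clcn2 (0.943, 0.779), Kcnk5 (0.943, 0.681), Pim1 (0.943, 0.667), Fam109a (0.939, 0.782) and Fam3b (0.938, 0.824). Without the 2 B6 dam libraries of day 24 their r was 0.845 to 0.899. Of the clock genes outside the set, Cry1 had r 0.699 (0.259 without those 2 libraries), Clock 0.678 (0.317), Npas2 0.580 (0.344), Arntl -0.016 (0.026) and Nfil3 -0.346 (0.166).

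In GENCODE M21 (GRCm38) the genes lie on 8 chromosomes, and 4 share exonic bases with a gene on the other strand. Per2 spans chr1:91415982-91459324, Nr1d2 chr14:18204054-18239127, Per1 chr11:69095217-69109960, Per3 chr4:151003652-151044665, Hlf chr11:90336536-90390895 and Ciart chr3:95878503-95882251. Nr1d1 (chr11:98767932-98775333) shares 263 bases, 8.55% of its exon length, with Thra, the thyroid hormone receptor gene at 8.61 to 40.8 TPM. Dbp (chr7:45705088-45710203) shares 539 bases, 18.0%, with Sphk2 at 3.65 to 10.4 TPM. Tef (chr15:81802421-81826863) shares 193 bases with Gm17597, and Usp2 (chr9:44067021-44095627) shares 200 bases with Gm49380 and Gm39325. The sources used here do not state whether counting used strand, so reads from these shared bases cannot be assigned, and the low values of Dbp are the most exposed.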

How the data were processed

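The authors deposited 1 table of TPM values for 53278 gene symbols in 17 libraries, made per the labels' protocols from sorted cells with the SMART-seq v4 and Nextera XT kits. Per the submitters' processing notes the tools included Bowtie2, Subread and DESeq2 and the build was mm10; their roles and versions are not given in the sources used here. Multiplying TPM by GENCODE M21 exon length recovered reads for 49618 symbols, with 93.6% of values whole within 0.01 reads or a relative 0.0001.

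Differences were tested with limma 3.58.1 (R 4.3.3; trend) on log2(TPM + 1), with all 17 libraries fitted together, for 15066 genes with at least 1 TPM in at least 2 libraries, with Benjamini-Hochberg adjustment over all genes and a threshold of 0.05. Fold changes on this scale understate the change of low genes. The same fit was run on TPM divided by median-of-ratios size factors, and limma-voom on recovered reads. Sums and ratios used Python 3.11.15, numpy 2.4.6 and pandas 2.3.3. Scripts were tested on simulated data. The genes and lists were chosen with earlier results of these data known: all 10 genes of the set are named, with Arntl, Npas2, Clock, Cry1 and Nfil3 and up to 4 other clock genes and up to 3 glucocorticoid-responsive genes with the smallest p per comparison, the 8 genes of greatest likeness, and genes with overlapping exons; 1 gene that the rule names is not reported here. Other settings tried were pseudocounts of 0.1 and 5, no filter and a filter at 5 TPM, rescaling without Gm23935 and the mitochondrial genes, only the 2 groups compared, a replicate block, and leaving out each library.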

Additional observations from a re-analysis of the deposited data

Results flagged for a closer look

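For 4 genes the libraries of the 2 dams lay apart without overlap in opposite directions at 2 ages in deposited TPM. These differences between ages were not tested. None of the 4 was called between dams at day 14. The day 24 contrast was used in choosing the genes, so nothing is read from this count. The median gene moved in the same way, by 0.33 at day 14 and -0.38 at day 24, and 12% of all tested genes were likewise higher at day 14 and lower at day 24 without overlap, and 0.538% higher at day 14 and lower at day 42. Nr1d1 was lower with the IgA-null dam at day 24 (log2 -1.37) and higher at day 14 (0.35). Per1 was lower at day 24 (-0.60) and higher at day 14 (0.56), and Per3 was lower at day 24 (-0.32) and higher at day 14 (0.34). Usp2 was lower at day 24 (-0.99) and at day 42 (-0.30) and higher at day 14 (0.36). In scaled TPM none of the 4 had groups that lay fully apart in opposite directions.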

How the results depend on the processing

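The fall of Per2 from day 14 to day 24 was called in all 19 alternatives with the B6 dam and all 21 with the IgA-null dam, and Per1 and Per3 in all 21 and 20 with the IgA-null dam; the other calls changed under at least 1 alternative, and the cause was not tested. Calls at day 14 between dams went from 0 to 2 with a pseudocount of 5, and to 1 without Gm23935 and mitochondrial genes and 1 with only the 2 groups compared. The day 24 median of -0.66 went to -1.39 and -0.21 with pseudocounts of 0.1 and 5, and from -0.91 to -0.61 when libraries were left out (-1.06 to -0.20 with scaling as well). From day 14 to 24 with the B6 dam the 5 calls became 3 with a filter at 5 TPM (fewer genes tested), 1 with only the 2 groups, and 2 to 6 when libraries were left out. With the IgA-null dam the 7 calls became 2 at 5 TPM, 4 with scaling, 4 without Gm23935 and mitochondrial genes, 4 with voom, and 3 to 7 with libraries left out. From day 24 to 42 the counts were 0 to 5 (B6 dam) with libraries left out. With the IgA-null dam the 2 calls became 1 with a pseudocount of 5, 0 at 5 TPM, 0 with scaling, 1 without Gm23935 and mitochondrial genes, 0 with voom, and 0 to 3 with libraries left out. Signs turned for Nr1d2 from day 14 to 24 with the IgA-null dam (0.058 scaled, 0.11 voom, and 0.16, 0.028, 0.069, 0.087 and 0.020 scaled with 1 library left out), for Usp2 there (0.46 scaled, 0.26 without Gm23935 and mitochondrial genes, 0.69 voom, and 0.49, 0.49, 0.41, 0.57, 0.33 and 0.50 scaled with 1 library left out), for Tef with the B6 dam (0.063 scaled without day 24 replicate 1) and for Per1 from day 24 to 42 with the IgA-null dam (-0.076 scaled without day 42 replicate 3). Of 48 differences of the 8 genes with a test, 34 were called on neither scale; 21 of these changed sign and 11 were called under at least 1 alternative. A replicate block by sample number gave 0 calls between dams at days 14 and 42 and a median of -0.68 at day 24. It gave 4 and 7 calls from day 14 to 24, and 0 and 2 from day 24 to 42. Same-numbered libraries correlated from -0.64 to 0.26. These values were centred within groups of 2 or 3 libraries, so they cannot decide whether the numbers pair libraries. Depth limits Hlf and Ciart: with no filter Ciart fell from day 14 to 24 with the IgA-null dam (-0.62, limma adjusted p = 0.000168), but not with voom (-1.06, 0.16).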

Other observations

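Of 17 genes linked to the clock or the PAR factors outside the loop, 16 were tested. From day 14 to day 24 with the B6 dam, 2 fell in deposited TPM (6.99% of all genes), Klf10 (log2 -1.08, limma adjusted p = 0.0045) and Wee1 (-1.08, 0.020). In scaled TPM 2 fell (5.91% of all genes), and Nampt (1.04, limma adjusted p = 0.017) and Alas1 (1.03, 0.023) rose (7.93%). With the IgA-null dam 10 of the 16 fell in deposited TPM, where 82.9% of all genes did. In scaled TPM 2 fell and 1 rose, where 8.28% of all genes fell and 1258 of 15066 rose. Between dams at day 24, all 16 were lower with the IgA-null dam in deposited TPM (median -0.79) and 13 in scaled TPM (median -0.32), where 87.8% and 54.9% of all genes were lower (medians -0.38 and -0.03). Limma called none of the 16 on either scale, with 8 and 0 at an unadjusted p under 0.05 against 30.9% and 10.1% of all genes.

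Of 9 glucocorticoid-responsive genes, 8 were tested. With the B6 dam from day 14 to day 24, 1 was called higher and 2 lower in deposited TPM (1.62% and 6.99% of all genes). In scaled TPM 1 was called higher and 1 lower (7.93% and 5.91%). The difference was negative for 7 of the 8 on both scales, all but Fkbp5. With the IgA-null dam all 8 were called lower in deposited TPM and 1 in scaled TPM, against 82.9% and 8.28% of all genes. Fkbp5, a glucocorticoid-induced chaperone, rose from 0.958 to 2.99 TPM on average from day 14 to day 24 with the B6 dam (log2 0.92, limma adjusted p = 0.035; scaled 1.17, 0.00039), while Dusp1, a phosphatase gene, fell (-1.38, 0.0010; scaled -1.13, 0.0051). Between dams at day 24 Fkbp5 was 2.99 and 0.583 TPM on average (log2 -1.24, limma adjusted p = 0.059; scaled -1.06, 0.061) and did not pass. From day 24 to day 42 with the IgA-null dam Fkbp5 rose (0.99, limma adjusted p = 0.0057; scaled 0.62, 0.041). In that comparison 4 of the 8 were called higher in deposited TPM, against 48.5% of all genes, and Fkbp5 alone was called in scaled TPM.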
